A study of Mus musculus with 50 samples.

Results

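Double knockout cells are RAW264.7 cells, a mouse macrophage line, that were edited with CRISPR guides against both SGK1 and SGK3. Their response to DMXAA was measured as the difference between 3 libraries from cells given 10 µg/mL DMXAA for 2 h (T, U and X) and 3 libraries from untreated cells (G, H and I). These are the 6 libraries of this genotype and these treatments in the lettered batch (b2), out of 50 libraries in the series. They were chosen by their labels alone. The same batch holds control cells, labelled WT and carrying an empty sgRNA vector, at rest (A, B and C) and with DMXAA (K, L, M and N). It also holds cells with a guide against SGK1 only, at rest (D, E and F) and with DMXAA (O, P, Q and R). All lines derive from RAW264.7, the labels name 1 line per genotype, and they do not say whether a line was a clone or a pool. Whether replicates came from separate cultures is not stated, so p-values reflect the variation among libraries, which may be technical. Another 4 libraries have titles that mark them as reruns: V and W (double knockout with DMXAA), S (SGK1 knockout with DMXAA) and J (control cells, whose title and treatment field differ, so that it entered no comparison). The numbered batch (b1) holds 5 further double knockout libraries with DMXAA and none at rest. All libraries were made from polyadenylated RNA.

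DMXAA binds mouse STING, an adaptor of the endoplasmic reticulum that normally answers the cyclic dinucleotide made by the DNA sensor cGAS. Activated STING recruits the kinase TBK1, which phosphorylates IRF3, and it also activates NF-kB. IRF3 and NF-kB together switch on interferon beta, chemokines and a first set of antiviral genes, and secreted interferon then induces a wider set through its receptor. SGK1 and SGK3 are serine and threonine kinases downstream of PI3 kinase, related to AKT, which phosphorylate FOXO transcription factors and NDRG proteins among others.

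The 6 libraries held between 63461414 and 95668665 estimated counts, and between 15041 and 17307 genes had a count. Spearman's rank correlation across genes between any pair of them lay between 0.962 and 0.984, and no pair held identical values. Macrophage markers were present in every library: Csf1r, the receptor for macrophage colony-stimulating factor, was at 1913 to 2292 CPM (counts scaled to library size, on 1 scale for all libraries) and Lyz2 at 3222 to 5688 CPM, whereas Mertk had no count. Of 32 markers of other cell types 19 had no count, and the summed level of the list was 1.49 to 5.59 CPM, highest in X. More genes had a count in the rerun libraries V and W (18161 and 17883) than in the 6. By rank correlation V and W did not stand apart. V was at 0.983 with T and 0.982 with U, beside 0.981 between T and U, and W was at 0.980 and 0.975. Both were lowest with X (0.965 for V and 0.954 for W). Ribosomal protein genes took 7.91% of counts in W, above the 3.97% to 6.71% of the 6, and 5.95% in V, within that range. Results are given with T, U and X, and, where they differ, with V and W in their place. That second comparison uses the same resting libraries G, H and I and was chosen after seeing the data. It sets reruns against libraries that are not reruns, also where control or SGK1 knockout cells enter. An effect of the rerun cannot be told apart there.

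Sgk1 (ENSMUSG00000019970.16, chr10:21758083-21875802, GRCm39) was at 0.533, 0.46 and 0.866 CPM in G, H and I and at 3.08, 2.54 and 1.73 CPM in T, U and X. In control cells of the same batch its resting level was 2.17 ± 1.02 CPM (SD, n = 3), and it reached 35.2 ± 6.59 CPM with DMXAA (SD, n = 4), so every double knockout library with DMXAA lay far below every control library with DMXAA. The change in the double knockout did not pass the test (log2 change 2.00 ± 0.66 SE, adjusted p = 0.088), but did with V and W in place (2.74, adjusted p = 0.044), with V and W added (0.029), with DESeq2 (0.010) and with both batches fitted together (0.0032). Its difference from control cells with T, U and X did not pass (-2.02 ± 0.87, adjusted p = 0.52). Sgk3 was at 125, 137 and 123 CPM at rest and at 105, 131 and 147 CPM with DMXAA, beside 124 and 129 CPM on average in control cells without and with DMXAA. A guided edit need not lower the amount of a transcript, so the Sgk3 level does not check the label. Sting1, which encodes the target of DMXAA, was at 12.3 to 16.6 CPM across the 6 libraries and did not pass the test.

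With DMXAA, 717 of 16622 tested genes rose in the double knockout and 407 fell at an adjusted p below 0.05 (edgeR quasi-likelihood test, Benjamini-Hochberg). These are 4.31% and 2.45% of all tested genes, 6.76% together, the background against which the counts of each gene group below are read. By 2-fold or more, 225 rose and 48 fell. The median log2 change over all tested genes was -0.02. The total of 1124 dropped to 699 without G and to 697 without I. With V and W in place of T, U and X, 397 of 17573 tested genes rose (2.26%) and 344 fell (1.96%). In bulk RNA, more RNA per responding cell and more responding cells cannot be told apart.

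Interferon beta and genes that IRF3 switches on directly rose. Of 17 tested genes of this early list 9 rose and 1 fell, with a median log2 change of 3.99, and with V and W 12 rose and none fell. Ifnb1 (ENSMUSG00000048806.5, chr4:88440262-88441011) encodes interferon beta and had no count at rest. It was at 1.67, 0.477 and 0.842 CPM in T, U and X and at 1.43 and 1.39 CPM in V and W, against 14.4 ± 6.59 CPM in control cells with DMXAA (SD, n = 4). The SGK1 knockout of the same batch was as low with DMXAA, at 1.11 ± 0.778 CPM (SD, n = 4). Control cells at rest had no count either, so the difference of response from them could not be estimated. Taking 3 read pairs per library as the limit that a count of 0 allows, the mean of T, U and X was at least 6.73-fold higher than that of G, H and I. The adjusted p of 0.025 was lost when any of T, X, G, H or I was left out (0.064, 0.06, 0.094, 0.074 and 0.084).

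The promoters of 4 genes of this list are shown because they carry sequence motifs that IRF3 and NF-kB are known to bind, 250 bases up to the annotated start, in the sense of the gene (RefSeq, GRCm38.p6). Capitals mark the interferon-stimulated response element (ISRE, searched as GAAANNGAAA on both strands) and the kappaB motif (searched by its usual consensus on both strands).
Ifit1, chr19:34640639-34640888, plus strand: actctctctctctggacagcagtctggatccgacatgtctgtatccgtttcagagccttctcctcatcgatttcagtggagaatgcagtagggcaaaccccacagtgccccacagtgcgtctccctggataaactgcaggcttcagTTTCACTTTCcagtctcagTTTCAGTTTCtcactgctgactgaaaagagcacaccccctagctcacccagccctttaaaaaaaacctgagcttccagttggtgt
Cxcl10, chr5:92348890-92349139, minus strand: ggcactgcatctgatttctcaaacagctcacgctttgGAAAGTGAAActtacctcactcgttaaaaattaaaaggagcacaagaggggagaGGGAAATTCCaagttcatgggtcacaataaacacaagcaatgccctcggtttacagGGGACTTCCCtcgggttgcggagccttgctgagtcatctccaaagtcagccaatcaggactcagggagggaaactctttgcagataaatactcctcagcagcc
Isg15, chr4:156200819-156201068, minus strand: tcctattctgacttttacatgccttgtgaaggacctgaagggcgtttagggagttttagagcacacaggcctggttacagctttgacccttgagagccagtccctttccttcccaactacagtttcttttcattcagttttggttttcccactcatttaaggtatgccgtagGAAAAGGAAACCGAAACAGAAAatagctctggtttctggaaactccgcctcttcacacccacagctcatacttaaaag
Ifnb1, chr4:88522795-88523044, minus strand: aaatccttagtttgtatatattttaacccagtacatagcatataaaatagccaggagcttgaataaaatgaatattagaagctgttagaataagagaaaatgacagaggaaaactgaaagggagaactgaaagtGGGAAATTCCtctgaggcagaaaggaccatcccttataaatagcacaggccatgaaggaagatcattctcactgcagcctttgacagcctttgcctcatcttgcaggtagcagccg
Ifit1 holds 2 ISRE matches that begin 104 and 85 bases before the start. Cxcl10 holds 1 ISRE match that begins 213 bases before the start and 2 kappaB matches at 159 and 103 bases. Isg15 holds 3 overlapping ISRE matches at 78, 72 and 66 bases, and Ifnb1 holds 1 kappaB match at 116 bases. Across 32851 promoters of the same table, 3.44% hold an ISRE match and 4.51% a kappaB match in the window from 250 bases before to 50 after the start. Of the 9 called early genes 8 have a promoter in the table, of which 5 hold the ISRE (Cxcl10, Ifit1, Ifit3, Isg15 and Rsad2) and 3 the kappaB motif (Cxcl10, Ifnb1 and Oasl1). A match describes these letters only.

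Ifit1 (ENSMUSG00000034459.9, chr19:34618271-34627409), which encodes an antiviral protein that binds foreign RNA ends, went from 0.586, 0.882 and 0.352 CPM at rest to 102, 117 and 95.6 CPM with DMXAA, a 173-fold rise (log2 change 7.43 ± 0.59, adjusted p = 2.2e-07). V and W were at 139 and 86.5 CPM, on both sides of T, U and X. Cxcl10, a chemokine for activated T cells, was at 1.97, 1.79 and 1.79 CPM in G, H and I and at 214, 240 and 134 CPM in T, U and X, with a log2 change of 6.74 ± 0.38 (adjusted p = 2.5e-09). All resting values lay below 2 CPM and all DMXAA values above 100, with X the lowest. Rsad2, which encodes the antiviral enzyme viperin, had a count in 1 of 3 resting libraries and was at 8.04, 11.1 and 10.4 CPM with DMXAA (adjusted p = 3.3e-08). Isg15, a ubiquitin-like modifier, was uneven: 0.501, 0 and 1.06 CPM at rest and 25.1, 25.1 and 3.69 CPM in T, U and X, so X lay well below the other treated libraries. Its log2 change was 5.13 ± 0.84 (adjusted p = 0.00076), and V and W were at 39.6 and 33.2 CPM. Ccl5, Ifit3 and Cmpk2 rose by 4.91 ± 0.66, 3.99 ± 0.61 and 3.17 ± 0.42 on the log2 scale.

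**Figure D1:**
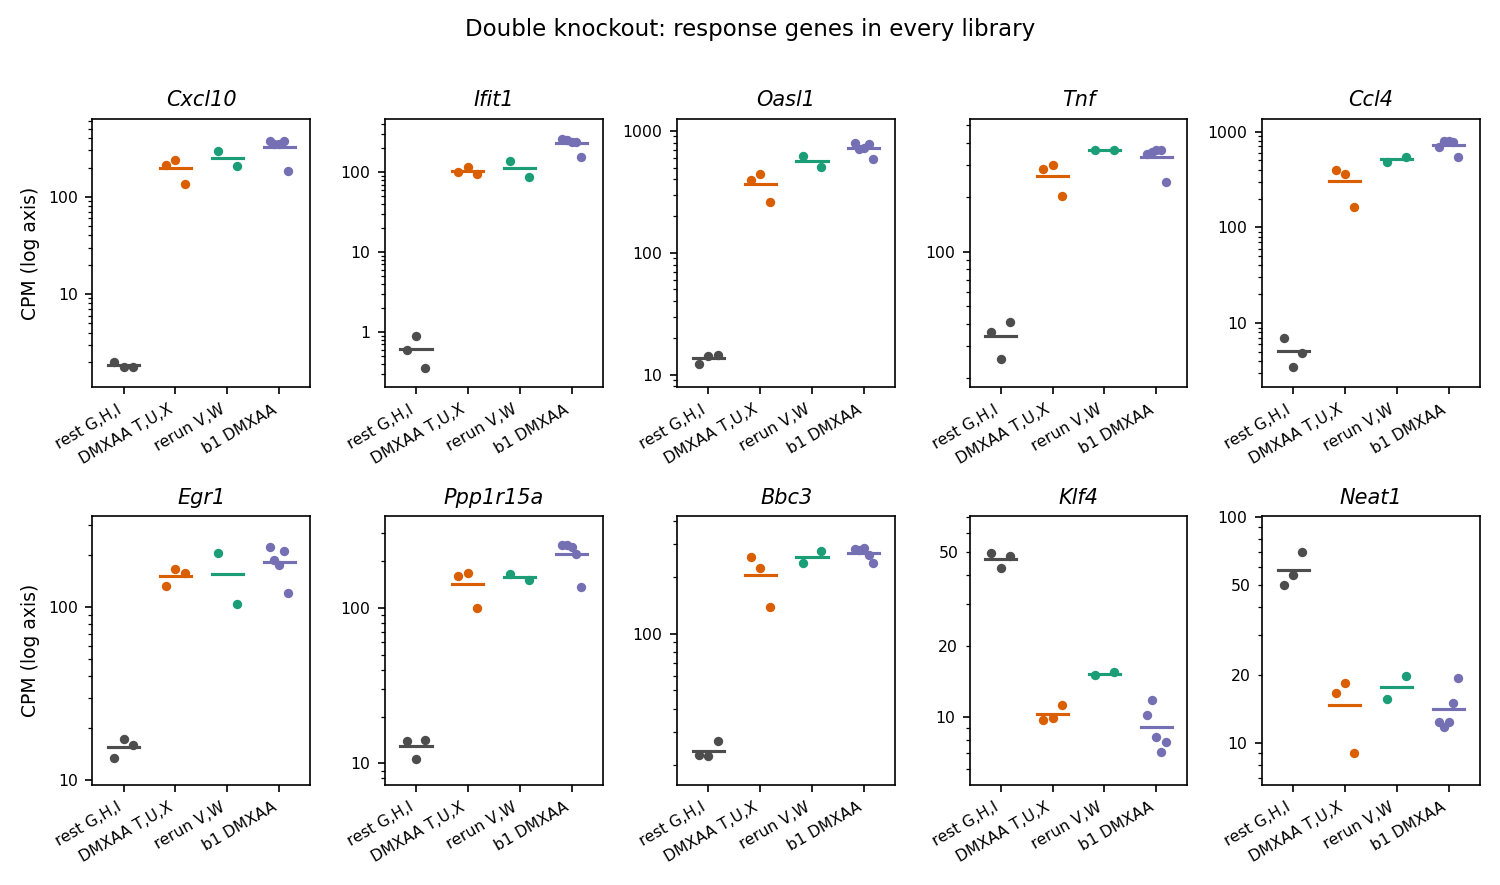
Level of 10 genes in the double knockout in CPM on a log axis: 3 resting libraries (G, H, I), 3 with DMXAA (T, U, X), the reruns V and W, and the 5 DMXAA libraries of the numbered batch (b1). Each point is 1 library and each line a group mean. Cxcl10 is at 134 to 240 CPM in T, U and X against 1.79 to 1.97 CPM at rest. No overlap between T, U, X and G, H, I was a condition for the largest rises and falls. Cxcl10, Ifit1, Oasl1, Ccl4, Klf4 and Neat1 are among these.

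Sensors of viral RNA and other interferon-stimulated genes moved in both directions. Of 53 tested genes of that list 14 rose, 6 fell and 33 did not pass, with a median log2 change of -0.09. With V and W, 18 rose and none fell. Ifih1, which encodes the RNA sensor MDA5, went from 4.19, 4.54 and 5.29 CPM to 47.3, 60.1 and 57.8 CPM (3.57 ± 0.21, adjusted p = 5.4e-10). Samd9l, a restriction factor for poxviruses, went from 31.5, 38.4 and 29.8 CPM to 185, 235 and 270 CPM. Parp14, an ADP-ribosyltransferase, went from 16.7, 17.7 and 17 CPM to 63.2, 78.4 and 90 CPM. In these 3 genes no resting library overlapped a treated one, as in 703 of the 717 called rises (98.0%). V and W also lay above all resting libraries, as in 428 of the 717 (59.7%). Trim25, the ubiquitin ligase that acts on RIG-I, rose by 0.90 ± 0.10, and Oasl2 by 4.39 ± 0.56.

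The 6 members that fell were Oas2, Oas3, Phf11d, Parp12, Trim30a and Tap1, and the 1 early gene that fell was Irf7, the interferon regulatory factor that interferon itself induces. Irf7 was at 4.65, 3.86 and 3.9 CPM in G, H and I and at 0.969, 2.05 and 1.79 CPM in T, U and X (-1.34 ± 0.22, adjusted p = 0.0005). V and W, at 7.71 and 7.98 CPM, lay above every resting library, and with them in place the change was 0.91 (adjusted p = 0.0056), the opposite direction. Oas2, an RNA sensor that makes oligoadenylates, was at 5.84, 6.69 and 8.32 CPM at rest, at 2.46, 2.67 and 2.43 CPM in T, U and X, and at 10.2 and 9.34 CPM in V and W. Oas3 was at 20.2, 19.3 and 18.8 CPM at rest, at 8.96, 9.65 and 10.3 CPM in T, U and X, and at 21.2 and 17.7 CPM in V and W. The treated libraries of the 2 sets thus did not overlap in any of these 3 genes. The count of 6 dropped to 3 without U and to 2 without I. Tap1 lost its call without T, U, G or I, and Trim30a without T, U, H or I.

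Of 22 tested inflammatory cytokines and chemokines 7 rose, none fell and 15 did not pass (median log2 change 2.51), and with V and W 5 rose and none fell. A further 12 members, Il1b and Il6 among them, were too low to be tested. Tnf (ENSMUSG00000024401.15, chr17:35418357-35420983), tumour necrosis factor, went from 35.9, 25.4 and 41.1 CPM to 286, 300 and 204 CPM, a 7.79-fold rise (2.96 ± 0.24, adjusted p = 9.1e-08), and was at 367 and 366 CPM in V and W. Ccl4, a macrophage chemokine, went from 7.04, 3.5 and 4.89 CPM to 394, 359 and 162 CPM. Its neighbour Ccl3 went from 32, 17.3 and 32.7 CPM to 283, 285 and 152 CPM. In both chemokines X was the lowest treated library and still lay above all resting ones. T, U and X lay so in 98.0% of all called rises. Cxcl2, which attracts neutrophils, rose by 4.09 ± 0.69 on the log2 scale (adjusted p = 0.00059). Among the 12 largest rises were also Acod1, the itaconate-making enzyme of activated macrophages (5.05 ± 0.25), Hdc, which makes histamine (5.13 ± 0.71), and Ccrl2, a chemokine-binding receptor (5.10 ± 0.65). Slc39a2, a zinc transporter, rose to 2.96, 3.61 and 1.66 CPM from a single count-bearing library at 0.0511 CPM. Tnn, tenascin-N, had no count at rest and was at 0.81, 1.79 and 0.793 CPM with DMXAA, at least 7.64-fold higher, but at 0.413 and 0.102 CPM in V and W.

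NF-kB subunits and their feedback inhibitors rose in 12 of 22 tested genes and fell in 1, and with V and W 7 rose and none fell. Tnfaip3, which encodes the inhibitor A20, went from 6.18, 8.4 and 10.1 CPM to 56.7, 67.4 and 61.8 CPM (2.92 ± 0.22, adjusted p = 1.4e-08). Nfkbia, which encodes IkB alpha, went from 88.8, 81.6 and 94.1 CPM to 179, 178 and 160 CPM (0.98 ± 0.10). Rel, a subunit, rose by 1.05 ± 0.20 (0.52, adjusted p = 0.18, with V and W) and Icam1, an adhesion molecule, by 0.84 ± 0.13. Tnfaip2 rose from 53.4, 61.6 and 53.8 CPM to 90.4, 104 and 110 CPM, but V and W, at 52.9 and 45 CPM, lay below or among the resting libraries. The 1 fall was that of Tnip3, from 122 to 130 CPM at rest to 88.0 to 99.6 CPM with DMXAA, and its adjusted p of 0.0032 became 0.056 without U and 1 with V and W in place. In the list of Toll-like receptors and adaptors 3 of 21 rose and none fell, whereas with V and W 2 rose and 3 fell. Tlr2, the receptor for bacterial lipoproteins, led it, from 218, 236 and 231 CPM to 551, 598 and 618 CPM (1.38 ± 0.08, adjusted p = 6.2e-10). Aim2, a sensor of cytosolic DNA, rose by 1.12 ± 0.09, while Nlrp3, the core of another inflammasome, fell by 0.53 ± 0.09 on the log2 scale. Of 17 tested genes of inflammasomes and cell death 1 rose and 3 fell.

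Immediate early genes, which need no new protein to be switched on, rose in 17 of 35 tested genes and fell in 1 (median log2 change 0.90). With V and W 16 rose and 3 fell. Egr1, a zinc finger transcription factor, went from 13.5, 17.3 and 15.9 CPM to 133, 166 and 158 CPM (3.30 ± 0.16, adjusted p = 5.1e-11). Atf3, a repressor of inflammatory genes, went from 7.06, 7.53 and 7.89 CPM to 31.6, 29.5 and 25.7 CPM, and Egr2 rose by 3.80 ± 0.56. Ppp1r15a encodes GADD34, which brings protein phosphatase to eIF2 alpha, and went from 14, 10.6 and 14.1 CPM to 160, 167 and 100 CPM (3.48 ± 0.24, adjusted p = 1.2e-08). Its promoter is shown because it holds the cyclic AMP response element TGACGTCA, marked in capitals, which ATF and CREB factors are known to bind.
Ppp1r15a, chr7:45526269-45526518, minus strand: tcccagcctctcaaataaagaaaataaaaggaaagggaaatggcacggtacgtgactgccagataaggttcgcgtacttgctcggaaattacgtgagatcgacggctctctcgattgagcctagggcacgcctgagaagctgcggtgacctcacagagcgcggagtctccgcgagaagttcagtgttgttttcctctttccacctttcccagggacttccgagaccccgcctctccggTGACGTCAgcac
The marked match begins 12 bases before the start (both strands searched). An ISRE match, left in lower case, begins 220 bases before the start. Of the 17 immediate early genes that rose 13 have a promoter in the table, and 3 of these hold this element (Btg2, Maff and Ppp1r15a, of which Btg2 lost its call with V and W in place and without any 1 library but X, and Maff without G or H), beside 1.79% of all promoters. The CArG box of serum response factor, searched by its consensus, was found in 2 (Egr2 and Zfp36), beside 1.63% of all. The kappaB motif was found in 3 (Fosl2, Ier3 and Maff), beside 4.51%. The ISRE was found in 2 (Fosl2 and Ppp1r15a), beside 3.44%, and the AP-1 motif in 1 (Csrnp1), beside 7.81%. Fosl2, an AP-1 subunit, differed between the sets of treated libraries: it was at 79.5 to 91.3 CPM in T, U and X, at 49.4 to 61.4 CPM at rest and at 34.6 and 27.2 CPM in V and W.

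Lists of brakes on signalling and of messenger RNA decay moved in both directions. Among MAP kinase phosphatases, TRIB and RGS proteins 3 of 21 tested genes rose and 2 fell. Rgs1, which switches off chemokine receptor signals, went from 5.12, 7.11 and 4.45 CPM to 25.8, 31.9 and 17.8 CPM (2.19 ± 0.31, adjusted p = 6.9e-05). Trib1 fell, from 11.5, 11.4 and 12 CPM to 2.61, 4.05 and 5.16 CPM (-1.54 ± 0.33, adjusted p = 0.0052, and 0.057 with V and W in place). The 2 called phosphatases depended on single libraries: Dusp4 (0.54 ± 0.14) lost its call without T, X, G or I and with V and W in place (-0.18), and Dusp6 (-0.87 ± 0.23) without T, U, G or H. Among regulators of messenger RNA decay 7 of 18 rose and 1 fell, and with V and W 5 rose and none fell. Zfp36, tristetraprolin, went from 37, 34.9 and 32.7 CPM to 74.9, 89.4 and 62.5 CPM. Zc3h12c, a relative of the nuclease regnase-1, went from 51.5, 58.9 and 45 CPM to 122, 150 and 168 CPM. Tob2, an adaptor of the deadenylase complex, rose by 1.12 ± 0.12, and Btg1 changed by -0.37 ± 0.08, a call lost with V and W in place (adjusted p = 0.054). In none of the 3 rising genes did treated and resting libraries overlap, as in 98.0% of all called rises.

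The cGAS, STING and TBK1 pathway itself changed little in RNA: 2 of 28 tested genes rose and 1 fell. The 2 rises were Tbk1 (0.46 ± 0.12), lost without U or G, and Tollip (0.30 ± 0.08), lost without U, G or I, and neither passed with V and W in place (0.35 and 0.05). Tbkbp1, a TBK1-binding adaptor, fell from 46.6, 44.8 and 42.6 CPM to 28.9, 29.5 and 28 CPM and was at 29 CPM in both V and W. Of 28 tested SGK, AKT and PI3 kinase genes 3 rose and 2 fell, none of them past 1.5-fold. The rises were Pik3ca, Pik3cb and Pik3r5, of PI3 kinase, and the falls Ndrg2 and Fkbp5. The rises became 1 without U and 0 without X, G or I, and the falls became 1 without H and 0 without any other of the 6. With V and W in place 1 rose and 3 fell. Targets of FOXO factors, which SGK and AKT kinases are known to phosphorylate, rose in 5 of 29 tested genes and fell in 2, the same counts as with V and W. Cdkn1b, the cell cycle inhibitor p27, went from 39.9, 44.6 and 41.6 CPM to 80.1, 89.3 and 82.2 CPM, with V and W at 81.5 and 87 CPM (1.01 ± 0.09, adjusted p = 1.6e-07). Ccng2 and Sesn2 rose by 1.18 ± 0.18 and 0.97 ± 0.15. Txnip, an inhibitor of thioredoxin and glucose uptake, fell from 216, 206 and 219 CPM to 129, 124 and 123 CPM, and Arrdc3, its relative, from 7.91, 7.35 and 8.43 CPM to 1.51, 1.19 and 3.32 CPM. In Cdkn1b and Txnip all 5 treated libraries of both sets lay close together and apart from the resting ones.

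Among BCL2 family genes 4 of 15 rose and 1 fell, and with V and W 2 rose and 1 fell. Bbc3, which encodes the death-promoting protein PUMA, went from 22.5, 22.2 and 27 CPM to 256, 224 and 140 CPM (3.12 ± 0.24, adjusted p = 3.3e-08), and V and W were at 239 and 277 CPM. Pmaip1, which encodes NOXA, went from 34.5, 34.1 and 34.1 CPM to 83.8, 84.3 and 81 CPM. Bcl2l11, which encodes BIM, and Mcl1, a survival protein, rose by 0.61 ± 0.13 and 0.36 ± 0.06, and did not pass with V and W in place (0.48 and 0.19). The list thus held rises of death-promoting and of survival genes, while Bak1 (-0.31 ± 0.09) lost its call without T, U, G, H or I and with V and W in place. Of 25 tested p53 targets 6 rose and 1 fell, Bbc3 and Pmaip1 among the rises, and Mdm2, which degrades p53, rose by 0.44 ± 0.10.

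The 12 largest falls by the naming rule were led by Klf4 (ENSMUSG00000003032.9, chr4:55527143-55532466), a transcription factor of monocytes. It was at 49.4, 42.6 and 48.2 CPM at rest and at 9.71, 9.92 and 11.2 CPM with DMXAA, a 4.51-fold fall (-2.17 ± 0.15, adjusted p = 5.9e-09), with V and W at 15.1 and 15.4 CPM. Angptl4, a secreted inhibitor of lipoprotein lipase, went from 11.2, 10.1 and 10.6 CPM to 2.56, 2.98 and 1.65 CPM. Neat1, the long noncoding RNA of paraspeckles, went from 50.1, 55.3 and 69.8 CPM to 16.5, 18.4 and 8.99 CPM (-1.99 ± 0.26, adjusted p = 3.6e-05). For these 3 genes V and W also lay below every resting library, as in 240 of the 407 called falls (59.0%). Rubcnl, an autophagy regulator, fell by 2.02 ± 0.27 on the log2 scale. Lrrc25, a leucine-rich repeat protein, fell by 1.90 ± 0.29, and with V and W in place its change was -0.66 (adjusted p = 0.13). Zfp3, a zinc finger protein, fell by 1.78 ± 0.48, a call lost when any library but T was left out and with V and W in place (-1.68, adjusted p = 0.076). Cebpa, a myeloid transcription factor, went from 77.9, 70.6 and 67.9 CPM to 39.7, 32 and 22.9 CPM, and Irf8, another, from 93, 79.2 and 81.3 CPM to 58.9, 52.9 and 51.7 CPM. Of 25 tested genes of macrophage identity 4 rose and 3 fell, with C5ar1, the receptor for complement C5a, rising by 1.70 ± 0.19. The rises numbered 2 without U or without G, and with V and W 2 rose and 4 fell. Of the 12 fallers 7 have a promoter in the table. None of these holds the ISRE, beside 3.44% of all promoters, and 2 hold the kappaB motif (Epsti1 and Zfp3), beside 4.51%. With 7 promoters, finding no ISRE does not set these genes apart.

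Ccnd1, which encodes cyclin D1, went from 666, 671 and 627 CPM to 292, 288 and 316 CPM, and V and W, at 414 and 444 CPM, lay between (-1.12 ± 0.08, adjusted p = 1.1e-08). Among KLF factors 2 of 10 rose and 2 fell (1 and 3 with V and W), with Klf10 falling by 0.94 ± 0.14 on the log2 scale and Klf6 rising by 0.80 ± 0.08. The change of Klf6 with V and W in place was 0.20 (adjusted p = 0.26). In the osteoclast list 1 of 13 rose and 3 fell (0 and 2 with V and W), including Nfatc1, its main transcription factor (-0.63 ± 0.13). In the costimulation list 3 of 15 rose and none fell (1 and 1 with V and W), among them Cd83 (0.94 ± 0.12, but 0.44, adjusted p = 0.095, with V and W). Of 28 tested sterol genes 3 rose and none fell, led by Insig1, the brake on SREBP processing, from 99.6, 117 and 110 CPM to 253, 265 and 248 CPM. For V and W the sterol counts were 2 rises and 6 falls, Insig1 was at 171 and 163 CPM, and 10 members were higher in T, U and X than in V and W by the direct test. In control cells 2 rose and 8 fell. In the unfolded protein response 5 of 22 rose and 1 fell, and the rises numbered 3 without U and 2 without I (4 and no fall with V and W). In the ATF4 list 4 of 26 rose, with the amino acid transporter Slc38a2 at 0.80 ± 0.10. Antigen presentation had 1 rise and 1 fall among 21, the NRF2 list 1 rise and 3 falls among 21 (1 fall without G or H, 0 without I and with V and W), and nuclear long noncoding RNAs 1 fall among 10 (2 rises and 1 fall with V and W). None of 30 ribosomal protein genes and none of 7 tested markers of other cell types passed the test.

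Several groups moved with T, U and X but not with V and W. Lysosomal genes and targets of MiT/TFE factors rose in 18 of 45 tested genes and fell in none, and in 2 with 1 fall with V and W in place. Atp6v1a, a subunit of the proton pump that acidifies lysosomes, went from 281, 295 and 286 CPM to 504, 526 and 532 CPM in T, U and X (0.87 ± 0.07, adjusted p = 1e-07), and was at 273 and 240 CPM in V and W. Ctsb, cathepsin B, went from 1130, 1095 and 1160 CPM to 2167, 2149 and 1542 CPM, and was at 1289 and 1337 CPM in V and W. Gpnmb, a lysosomal glycoprotein, was at 7.98 to 8.44 CPM at rest, at 31.5, 27 and 23.5 CPM in T, U and X, and at 11.9 and 10.9 CPM in V and W. In these 3 genes V and W lay nearer to the resting libraries than to T, U and X. Flcn, the folliculin gene that restrains MiT/TFE factors, is an exception: it went from 40.4, 46.4 and 37.9 CPM to 103, 98.2 and 85.1 CPM, and was at 86.9 and 86.3 CPM in V and W.

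**Figure D2:**
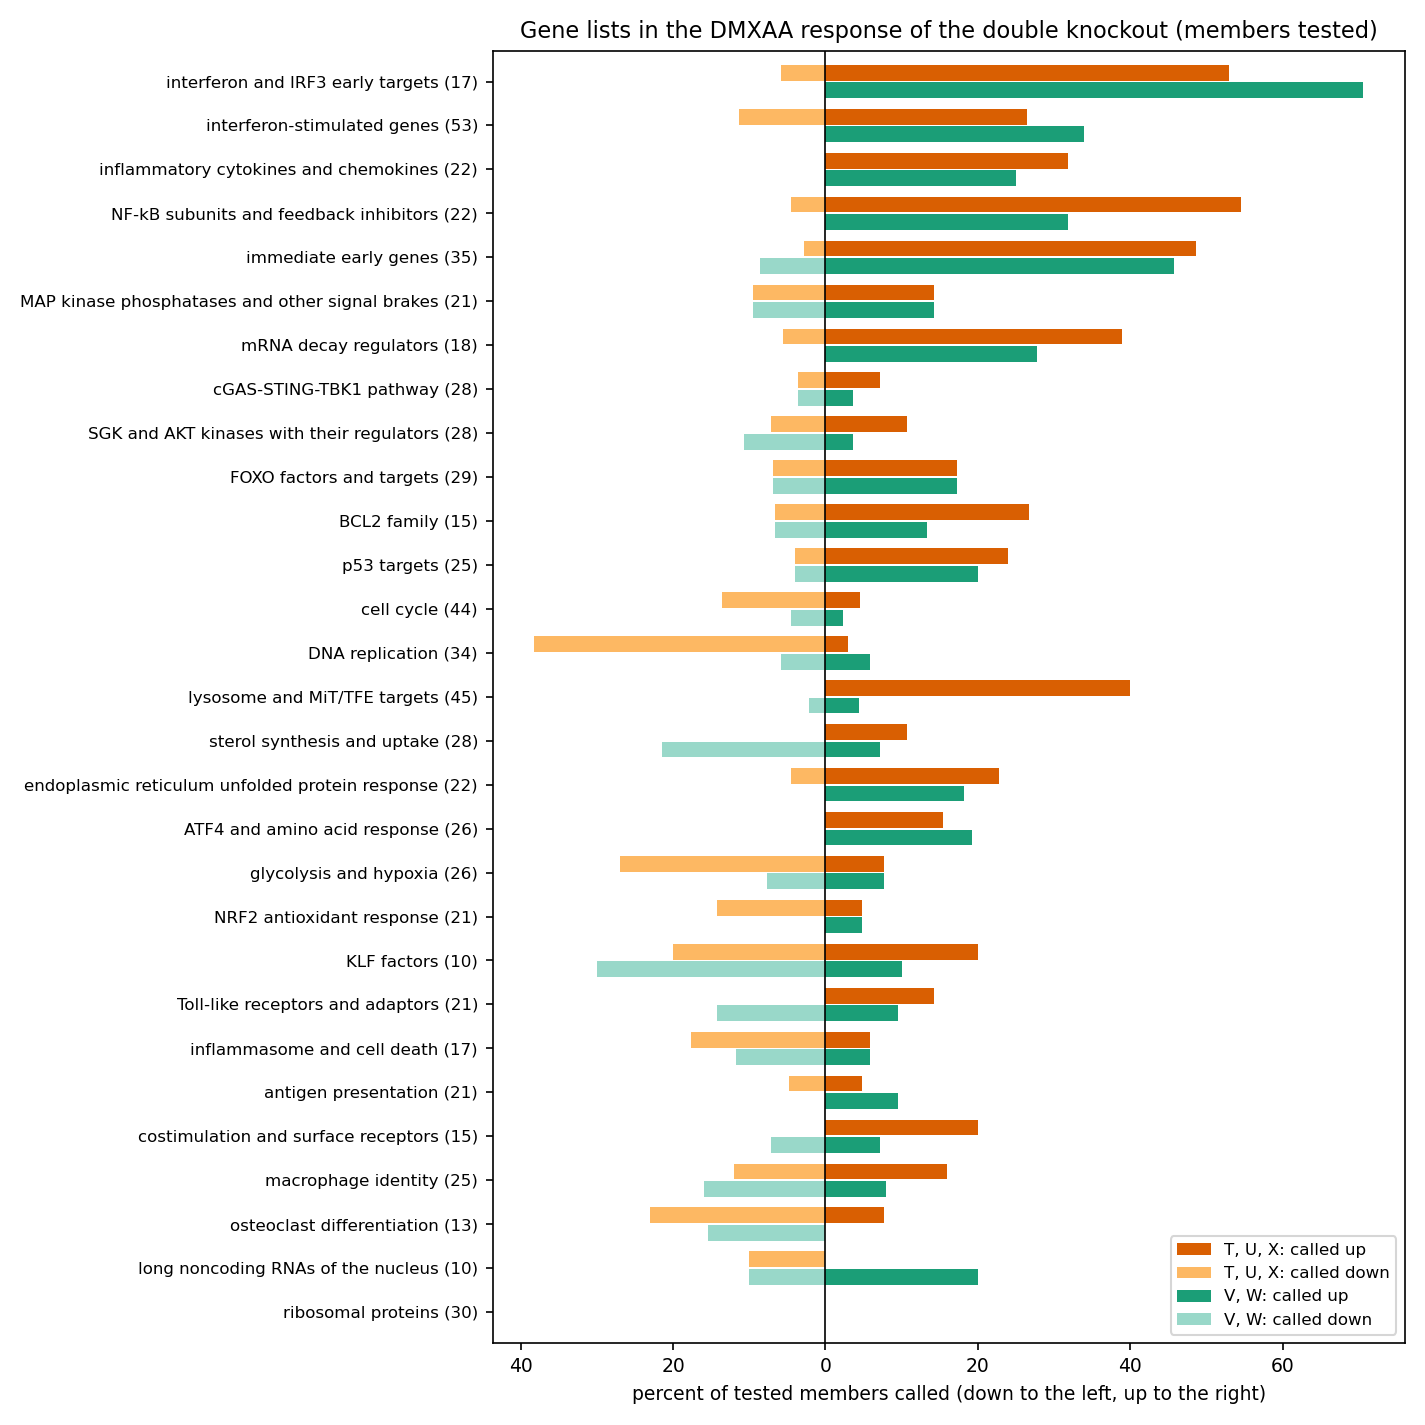
Percent of the tested members of each gene list called up or down in the double knockout with DMXAA, with libraries T, U and X and with V and W in their place. Markers of other cell types are left out. Over all tested genes, not drawn, 4.31% rose and 2.45% fell with T, U and X, and 2.26% and 1.96% with V and W. The lysosome list shows 18 of 45 called up with T, U and X and 2 with V and W, whereas the early interferon list shows 9 and 12 of 17.

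DNA replication genes fell in 13 of 34 tested genes and rose in 1 with T, U and X, and fell in 2 and rose in 2 with V and W. The changes were small. Mcm7, a subunit of the replicative helicase, went from 309, 291 and 306 CPM to 237, 221 and 218 CPM (-0.41 ± 0.06, adjusted p = 0.00014), and was at 271 and 301 CPM in V and W. Rrm2, a subunit of ribonucleotide reductase, went from 178, 168 and 181 CPM to 127, 129 and 111 CPM, and was at 172 and 193 CPM in V and W. The count of 13 became 6 without T, 3 without U, 3 without G, 4 without H and 5 without I. Cell cycle genes showed 2 rises and 6 falls among 44, and the falls became 1 without U, G or I, 3 without T or H and 4 without X. For V and W these counts were 1 and 2. Glycolysis genes showed 2 rises and 7 falls among 26. These 7 became 4, 1 and 3 without T, U and X and 0, 3 and 1 without G, H and I, and with V and W 2 genes rose and 2 fell. The rise of Pfkp, a phosphofructokinase (0.60 ± 0.08), was as large with V and W (0.62).

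Single genes showed the same split. Dmpk (ENSMUSG00000030409.17, chr7:18817774-18827746), a kinase best known from muscle, was at 100, 79.8 and 90.9 CPM at rest, at 27.2, 26 and 26.8 CPM in T, U and X, and at 88 and 112 CPM in V and W. Its fall in T, U and X was 3.36-fold (-1.75 ± 0.12, adjusted p = 4.7e-09). Its neighbour Dmwd, whose call was lost without U, G or I (adjusted p = 0.10, 0.063 and 0.062), was at 4.09 to 5.59 CPM at rest, 0.742 to 1.93 CPM in T, U and X, and 5.61 and 10.5 CPM in V and W. Itga6, an integrin subunit, was at 21.2, 23.8 and 19.4 CPM at rest, at 5.04, 5.39 and 8.26 CPM in T, U and X, and at 16.3 and 14.1 CPM in V and W. Spp1, which encodes osteopontin, was at 1125, 1051 and 1138 CPM at rest, at 532, 484 and 419 CPM in T, U and X, and at 1263 and 1524 CPM in V and W. Epsti1, an interferon-induced gene, fell by 1.83 ± 0.37 on the log2 scale with T, U and X, and with V and W its change was 0.40 (adjusted p = 0.58). Upwards, Cd33, an inhibitory receptor that binds sialic acid, was at 49.2, 64.5 and 55.9 CPM at rest, at 148, 171 and 207 CPM in T, U and X, and at 49.5 and 37.2 CPM in V and W. Slc6a8, the creatine transporter, was at 7.64, 10.4 and 5.52 CPM at rest, at 29.9, 33.6 and 34.7 CPM in T, U and X, and at 6.12 and 7.18 CPM in V and W.

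Tested directly, 676 of 17887 genes (3.78%) differed between T, U and X and V and W, 442 higher (2.47%) and 234 lower (1.31%) in T, U and X. This comparison was chosen after seeing the data. The total became 96 without W, 290 without X, 409 without U and 1133 without T. In the SGK1 knockout, the rerun library S lay below all of O, P, Q and R for 411 of the 442 genes (93.0%, against 18.1% of all genes of that fit) and above all of them for 203 of the 234 (86.8%, against 28.6%). The 5 double knockout libraries with DMXAA of the numbered batch lay on the side of T, U and X. All of them were above V and W for 244 of the 442 (55.2%, against 12.4% of all genes). All were below V and W for 170 of the 234 (72.6%, against 15.1%). For Dmpk the SGK1 knockout was at 30.4 ± 3.92 CPM in O to R (SD, n = 4) and at 94.7 CPM in S, and for Cd33 at 153 CPM on average in O to R and at 50.7 CPM in S. Control cells at rest also differed between batches in these genes. Dmpk was at 92.8 ± 4.86 CPM in resting control cells of the lettered batch and at 13.1 ± 2.26 CPM in those of the numbered batch (SD, n = 3 each), and Cd33 at 29.1 ± 4.43 and 119 ± 14.5 CPM. Of the 407 genes that fell in the double knockout, 255 (62.7%) were lower in all 3 resting control libraries of the numbered batch than in all 3 of the lettered one, against 20.9% of all tested genes. Of the 717 that rose, 252 (35.1%) were higher there, again against 20.9%. Genes called both with T, U and X and with V and W had like shares. These were 63 of 104 falls (60.6%) and 76 of 252 rises (30.2%). Whether the property that separates the batches also has a part in the responses of these genes was not tested.

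**Figure D3:**
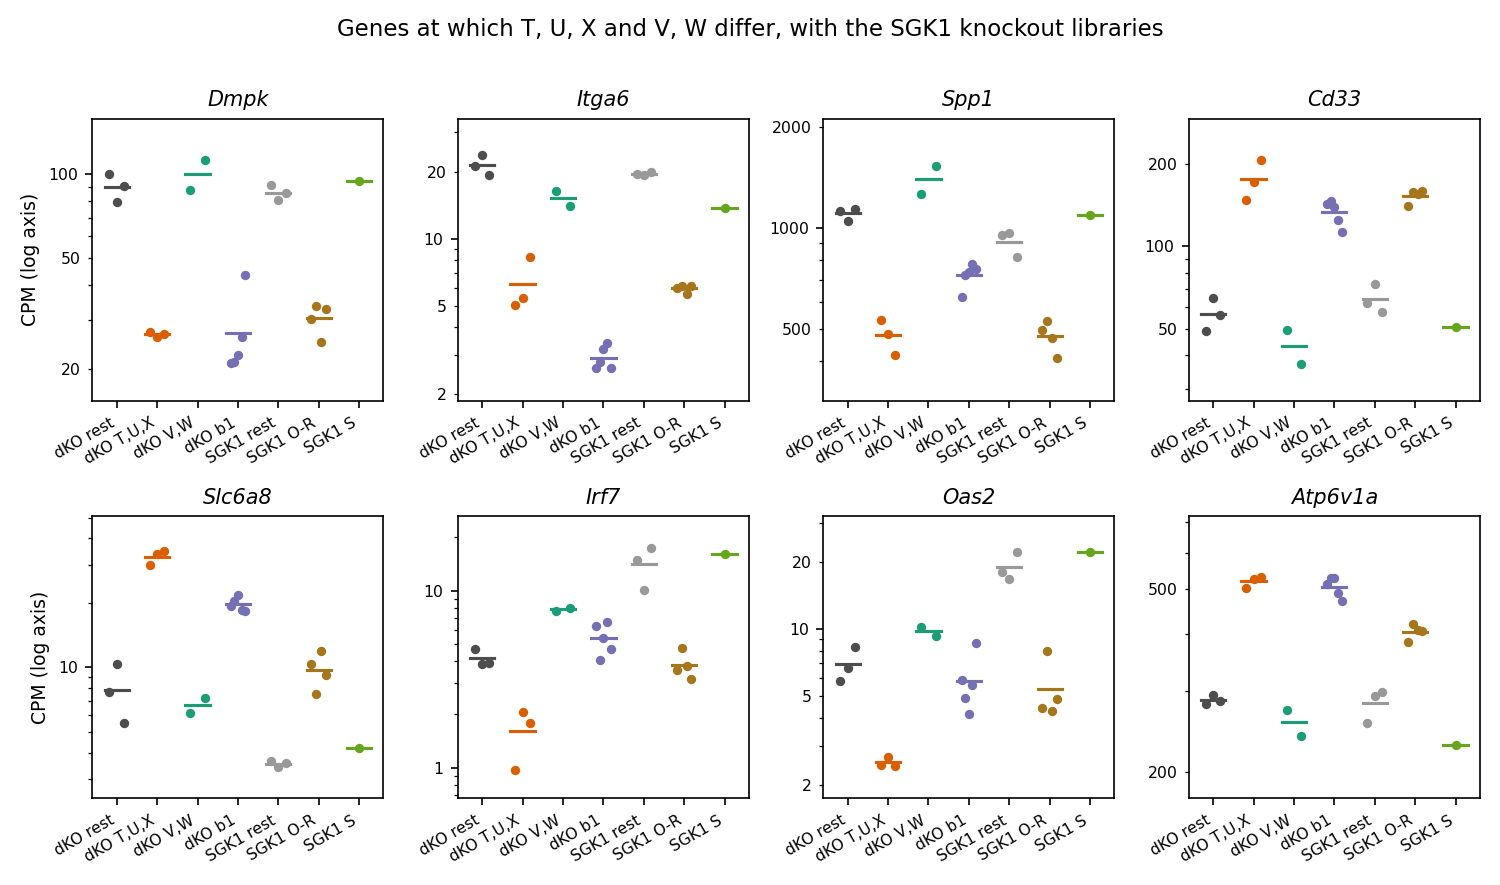
Level of 8 genes in CPM on a log axis in single libraries of the double knockout (rest G, H, I; DMXAA T, U, X; rerun DMXAA V, W; DMXAA of the numbered batch, b1) and of the SGK1 knockout (rest, DMXAA O to R, rerun S), with lines at group means. Dmpk is at 26 to 27.2 CPM in T, U and X and at 88 and 112 CPM in V and W, and S (94.7 CPM) lies with V and W.

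Control cells of the same batch responded to DMXAA in 662 genes (3.98%), 419 up (2.52%) and 243 down (1.46%). Of the 717 genes that rose in the double knockout 300 also rose in control cells, which is 41.8% of the first list and 71.6% of the second. Of the 407 that fell 74 also fell in control cells, 18.2% and 30.5% of the lists. These comparisons share no library. Tnf, Egr1 and Bbc3 rose by 2.96, 3.30 and 3.12 in the double knockout and by 3.50, 3.25 and 3.75 in control cells.

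The difference between the 2 responses passed the test in 130 genes (0.782%), 86 with a higher response in the double knockout (0.517%) and 44 with a lower one (0.265%). That number became 61 without I, 63 without G, 68 without A, 72 without C, 75 without L, 75 without U and 78 without N. It became 10 with V and W in place (0.0569%, of which 7 higher, 0.0398%, and 3 lower, 0.0171%) and 1 with V and W added to T, U and X. Among the 16 genes named for the largest differences, and apart from Rtp4, the differences that held when any 1 library was left out were those of Slc6a8 (2.12 ± 0.26), Cd33 (1.92 ± 0.18), Dmpk (-1.90 ± 0.16), Irf7 (-1.73 ± 0.29), Itga6 (-1.66 ± 0.23), Oas2 (-1.62 ± 0.28) and Spp1 (-1.51 ± 0.15). With V and W in place these 7 differences lay between -0.41 and 0.52 and none passed the test. The response of control cells passed in none of these 7 genes. In the SGK1 knockout of the same batch all 7 passed, in the direction of the double knockout. Its log2 changes, in the order named, were 1.45, 1.25, -1.51, -1.91, -1.72, -1.83 and -0.94. The difference of Acod1, named for its rise, also held when any 1 library was left out (1.72 ± 0.30, adjusted p = 0.0058). It was 0.82 (adjusted p = 0.81) with V and W in place. Acod1 rose by 4.87 in the SGK1 knockout. Arhgap24 differed by 3.11 ± 0.62 with T, U and X (adjusted p = 0.018, but 0.08, 0.066 and 0.053 without A, G and H) and by 1.26 with V and W.

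In 6 genes the difference passed the test with either set of treated libraries, a group picked after its values were seen, and both sets were compared with the same resting and control libraries. Gm20559 (ENSMUSG00000106734.4, chr6:3333194-3346128), a predicted gene, was at 4.32, 4.22 and 5.32 CPM at rest, at 51.3, 57.8 and 49.1 CPM in T, U and X, and at 78.9 and 57.2 CPM in V and W. Control cells went from 16.4 ± 2.06 to 65.4 ± 10.8 CPM (SD, n = 3 and 4), so its larger response in the double knockout (difference 1.55 ± 0.21, adjusted p = 0.00043) started from a lower resting level and ended at a like one. It was also the 1 gene called with V and W added (1.70 ± 0.23, adjusted p = 0.0035). Rtp4 (ENSMUSG00000033355.7, chr16:23339041-23432972), an interferon-induced protein, was at 0.938, 1.5 and 1.07 CPM at rest, at 13.5, 16.8 and 10.4 CPM in T, U and X, and at 36.2 and 29.7 CPM in V and W. In control cells it went from 53.2 ± 10.3 to 127 ± 23.3 CPM, so every double knockout library of the lettered batch and V and W lay below every resting control library of that batch, whereas the 5 double knockout libraries of the numbered batch were at 51.0 to 61.1 CPM. The difference of response was 2.30 ± 0.36 (adjusted p = 0.003). Oasl1, which restrains translation of Irf7, went from 12.1, 14.3 and 14.4 CPM to 394, 439 and 263 CPM, and in control cells from 57.3 ± 3.61 to 693 ± 48.4 CPM. Ddx58, which encodes the RNA sensor RIG-I, went from 6.65, 8.16 and 6.31 CPM to 22.1, 28.2 and 21.5 CPM, and in control cells from 64.2 ± 6.94 to 124 ± 12.3 CPM. In all 4 genes the resting level was lower in the double knockout than in control cells and the fold rise larger. The lower resting level was not particular to the double knockout. On average the SGK1 knockout went from 6.44 to 51.9 CPM for Gm20559 and from 5.01 to 25.6 CPM for Rtp4. For Oasl1 it went from 19.2 to 386 CPM and for Ddx58 from 20.9 to 42.4 CPM. The differences of response between double knockout and control cells were 1.17 ± 0.27 for Oasl1 and 0.85 ± 0.19 for Ddx58 (adjusted p = 0.043 and 0.033). Oasl1 lost its call (adjusted p from 0.074 to 0.15) when any control or double knockout library except X was left out, and Ddx58 (0.068 to 0.13) without A, C, K, L, N, U, G or I.

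The other 2 of the 6 had a lower response in the double knockout. Klf11, a KLF transcription factor, was at 5.06, 5.29 and 4.82 CPM at rest, at 4.83, 3.79 and 5.19 CPM in T, U and X, and at 3.87 and 3.79 CPM in V and W. In control cells it went from 3.17 ± 0.864 to 7.36 ± 0.502 CPM (difference -1.33 ± 0.28, adjusted p = 0.026). Pim1, a survival kinase, went from 21.6, 24.9 and 21.7 CPM to 65.4, 66.3 and 50.6 CPM, and in control cells from 16.6 ± 0.253 to 74.9 ± 7.54 CPM (difference -0.73 ± 0.16, adjusted p = 0.033). Klf11 lost its call (adjusted p from 0.055 to 0.11) without B, C, K, L, N, U, G, H or I, and Pim1 (0.055 to 0.097) without A, B, C, L, M, N, X, G, H or I. In the SGK1 knockout Klf11 went from 5.01 to 5.87 CPM on average and Pim1 from 14.8 to 71.1 CPM.

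**Figure D4:**
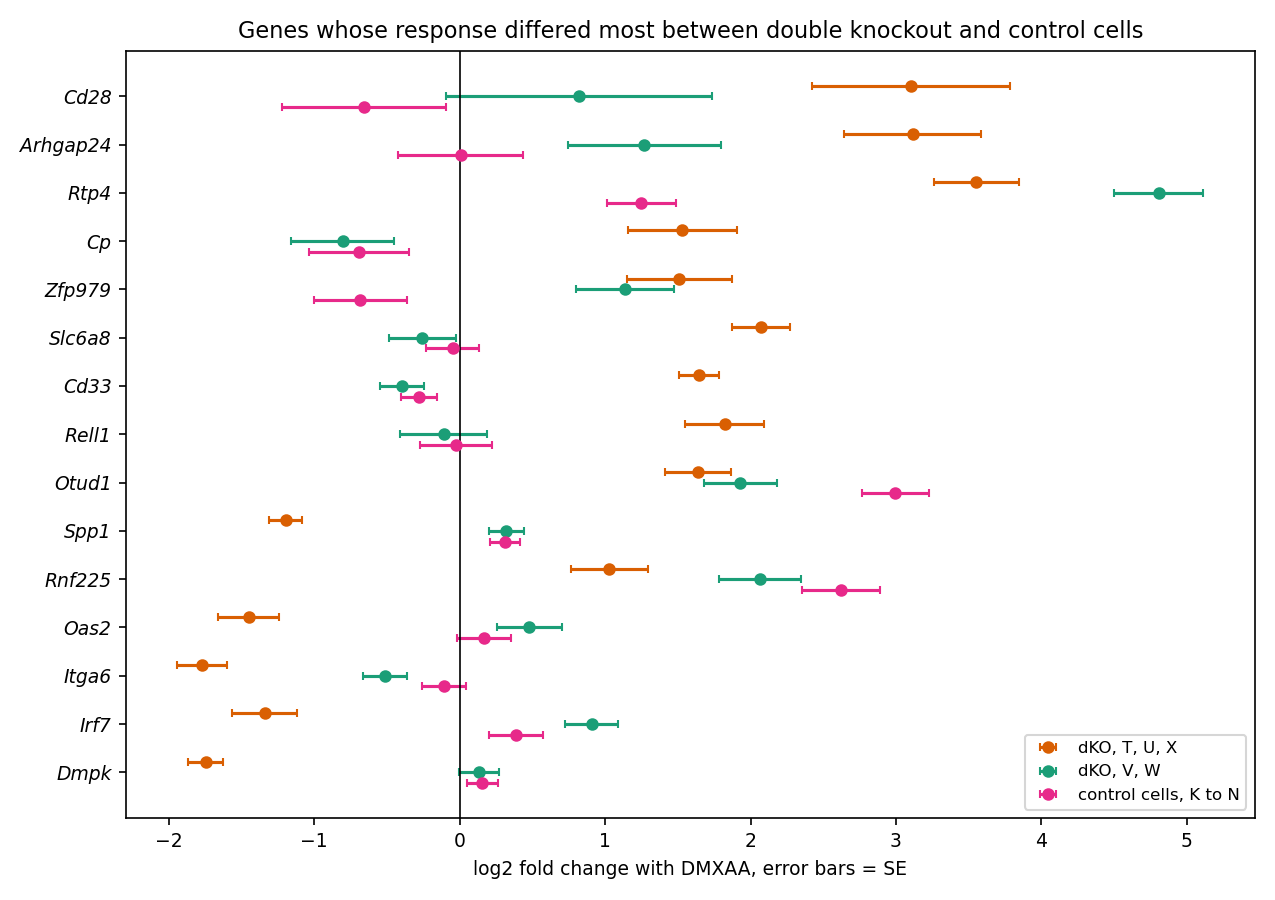
Log2 change with DMXAA ± SE for genes whose response differed most between double knockout and control cells: double knockout with T, U and X, double knockout with V and W, and control cells. Bdh1, with no count in any double knockout library with DMXAA shown here, is left out. For Dmpk, Cd33 and Slc6a8 the value with V and W lies near that of control cells, whereas for Rtp4 it lies further away (4.81 against 3.55 with T, U and X and 1.25 in control cells).

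Against the SGK1 knockout of the same batch, whose own response comprised 1856 genes (11.2%, with 5.89% up and 5.28% down), the response differed in 2 genes (0.012%, or 0.00602% in each direction), at an unadjusted p below 0.05 in 1556. With V and W in place 112 genes passed (0.637%), 32 higher (0.182%) and 80 lower (0.455%). That fit uses reruns for the double knockout only and keeps O to R for the SGK1 knockout. Rerun and genotype cannot be told apart in it. Nfkbiz (ENSMUSG00000035356.18, chr16:55631738-55659262), which encodes the NF-kB cofactor IkB zeta, went from 5.79, 9.06 and 6.2 CPM to 30.1, 34.6 and 29.9 CPM in the double knockout, and V and W were at 31.3 and 31.4 CPM. In the SGK1 knockout it went from 4.76 to 65.3 ± 5.26 CPM (SD, n = 4), and S was at 50.7 CPM. The difference was -1.60 ± 0.24 (adjusted p = 0.014), and the call was lost without E, F, T or X (adjusted p = 0.055, 0.062, 0.069 and 0.061). Control cells went from 6.16 to 55.9 ± 11.3 CPM, and the difference from them just missed the threshold (-0.99 ± 0.23, adjusted p = 0.053). Trp53i11, a p53-inducible gene, went from 5.36, 5.77 and 5.13 CPM to 9.85, 14.3 and 14.6 CPM and was at 4.31 and 5.4 CPM in V and W. In the SGK1 knockout it was at 53.5 CPM at rest and 57.2 CPM with DMXAA. Its difference of 1.17 ± 0.16 (adjusted p = 0.0084) became -0.27 (adjusted p = 0.69) with V and W in place.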

How the data were processed

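RNA-seq of polyadenylated RNA was deposited as tables of estimated counts and of TPM per gene. The authors' deposited estimated counts come from reads aligned with STAR 2.7.9a and summarised with StringTie 2.2.0 on GRCm39, per the submitters' processing notes. The deposited TPM values served only an alternative on the log2 scale (limma 3.58.1). Estimated counts were rounded and tested with edgeR 4.0.16 (R 4.3.3): TMM, filterByExpr, a robust quasi-likelihood test over the 20 libraries of the lettered batch, and Benjamini-Hochberg adjustment at 0.05. Levels are CPM on 1 TMM scale. A read pair was taken as 4 counts, an assumption from the most frequent low values. Members and gene lists were chosen with earlier results of these data known. Named genes are the 12 largest called rises and falls with no overlap between groups and at least 1 CPM in the higher, the 8 largest differences from control cells in each direction, and list members. Comparisons with V and W were added after seeing the data. Scripts were tested on simulated data. Promoters are from RefSeq (GRCm38.p6). Alternatives were other normalizations, filters, tools and left-out libraries. Some single-gene results are not reported here.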

Additional observations from a re-analysis of the deposited data

Results flagged for a closer look

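The DMXAA response of double knockout cells differed from that of control cells by the test of the difference itself in the following genes (log2, double knockout minus control). It was higher in Cd28 (3.76), Arhgap24 (3.11), Rtp4 (2.30), Cp (2.22), Zfp979 (2.19), Slc6a8 (2.12), Cd33 (1.92), Rell1 (1.85), Acod1 (1.72), Gm20559 (1.55), Oasl1 (1.17) and Ddx58 (0.85). It was lower in Bdh1 (-7.19), Dmpk (-1.90), Irf7 (-1.73), Itga6 (-1.66), Oas2 (-1.62), Rnf225 (-1.60), Spp1 (-1.51), Otud1 (-1.36), Klf11 (-1.33) and Pim1 (-0.73). Cd28 was at 0.149, 0.0511 and 0.23 CPM at rest and at 0.604, 0.53 and 2.54 CPM in T, U and X. Cp was at 1.61, 1.27 and 0.853 CPM at rest and at 2.45, 2.12 and 6.11 CPM in T, U and X. Bdh1 was at 0.299, 0.32 and 0 CPM at rest and had no count in T, U and X. The differences of Cd28, Cp and Bdh1 passed in 9, 9 and 6 of 25 alternatives, and that of Gm20559 in all 25. Against the SGK1 knockout the difference was 1.17 for Trp53i11 and -1.60 for Nfkbiz.

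Single libraries stood far from the rest of their group by Dixon's test in 30 of 278 tests, each of 1 gene in 1 group. Chance gives about 1 in 20 for a single test, but tests of different genes share libraries and are not independent. Of the 30, 25 were among the 5 double knockout libraries with DMXAA of the numbered batch, and 22 of the 25 in replicate 5. The CPM of the library that stood apart there was 1.38 for Ifnb1, 242 for Tnf, 186 for Cxcl10, 157 for Ifit1, 3.92 for Ccrl2, 36.1 for Acod1, 13.0 for Ccl5, 6.29 for Dmwd and 43.6 for Dmpk. It was 26.6 for Nfkbiz, 39.9 for Tnfaip2, 79.5 for Tnip3, 20.4 for Atf3, 70.7 for Csrnp1, 135 for Ppp1r15a, 156 for Rrm2, 1875 for Ctsb, 326 for Pfkp and 25.2 for C5ar1. It was 96.0 for Gm20559, 54.1 for Pim1, 7.87 for Ifit3, 53.7 for Ier3, 89.9 for Fosl2 and 7.71 for Mx2. Among control libraries with DMXAA of the lettered batch it was 25.4 for Sgk1, 62.5 for Tbk1, 83.4 for Cdkn1b, 128 for Fnip1 and 3.08 for Gpnmb.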

How the results depend on the processing

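The 1124 genes of the double knockout response became 2555 with both batches fitted together, 475 with the 6 libraries fitted alone, 685 without H and X, 700 with V and W added, 741 with V and W in place, and 697 to 1026 when 1 library was left out. The 130 genes that differed from control cells became 544 with both batches, 322 with DESeq2 1.42.0, 42 with limma on TPM, 81 without H and X, 225 with a transcript length term, 1 with V and W added, 10 with V and W in place, and 61 to 115 when 1 library was left out. The 2 genes that differed from the SGK1 knockout became 362 with both batches, 72 with DESeq2, 5 with the length term, 5 with V and W added, 112 with V and W in place, and 1 to 27 when 1 library was left out. They became 0 when fitted alone (969 at an unadjusted p below 0.05) and 0 with limma (1373). The 676 genes between T, U and X and V and W became 1539 with DESeq2, 142 alone, and 96 to 1133 when 1 library was left out. With V and W in place the response changed sign for Dmwd (0.66), Epsti1 (0.40), Dmpk (0.13), Oas2 (0.48), Irf7 (0.91), Tnfaip2 (-0.22), Dusp4 (-0.18), Rrm2 (0.036), Atp6v1a (-0.18), Ldha (0.066), Abca1 (-0.24), Tlr13 (-0.66), Fcgr3 (-0.15), Cp (-0.80), Slc6a8 (-0.26), Cd33 (-0.40), Rell1 (-0.11), Spp1 (0.32), Trp53i11 (-0.18) and Fosl2 (-0.82). The difference from control cells changed sign for Oas2 (0.31), Irf7 (0.52), Cp (-0.12), Slc6a8 (-0.21), Cd33 (-0.12), Rell1 (-0.087) and Spp1 (0.0052), and that from the SGK1 knockout for Trp53i11 (-0.27). The cause was not tested. With DESeq2's size factors in edgeR all 163 gene results kept their direction and call. No paired analysis was possible because the groups share no replicate letters. Depth limits genes near 12 counts per library, 3 read pairs.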
